A study of Mus musculus with 26 samples.

Results

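Potassium channel genes were taken as all genes whose array annotation symbol starts with Kcn, each read through the probe sets that name that symbol alone. There were 91 such genes among the 23152 genes tested, read by 804 of the array's 269751 probe sets. Grouped by symbol, 36 genes were counted as voltage-gated pore subunits, 8 as calcium- or sodium-activated pore subunits, 15 as inward rectifiers, 14 as two-pore channels and 16 as auxiliary subunits. The group of 8 holds the Kcnma1, Kcnn, Kcnt and Kcnu1 symbols, and what opens each pore, as for Kcnu1, was not used. The other 2 were Kcnrg, a gene for a suppressor of voltage-gated channels, and Kcnq1ot1, a long non-coding RNA antisense to Kcnq1.

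All cells were neural stem cells isolated from wild-type C57BL6 mouse embryos at E14.5 and given a construct by lentivirus. MYBtr, MYBQKI5, MYBQKI6 and QKItr were each over-expressed in pools 1, 2 and 3, and the over-expression control, eGFP, was read on 2 repeat arrays in each pool. In a second set, every sample over-expressed MYBQKI6, with Qk suppressed on 5 arrays and LacZ suppressed as control on 3 arrays. Neither the meaning of tr, the content of a pool, the means of suppression nor the origin of samples in separate cultures is stated in the labels, and a p-value here covers no more than the spread among samples, which may be technical. Each array gave deposited log2 signals, and a gene's level is the mean log2 signal of its probe sets.

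Voltage-gated channels open on depolarisation and repolarise the membrane, and large-conductance calcium-activated channels couple calcium rises to potassium efflux. Inward rectifiers and two-pore channels set the resting potential, and in glia they carry potassium uptake. Auxiliary subunits change the trafficking and gating of the pores. Neural progenitors are known to carry many of these channels before they fire action potentials.

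The labels were read first against the genes they name. Myb signal was 4.07 to 5.29 on the 6 eGFP arrays and 6.80 to 7.89 on the 9 arrays with a MYB construct, with no overlap. Qk signal was 9.30 to 9.70 on the 5 arrays with Qk suppressed and 9.68 to 9.74 on the 3 with LacZ suppressed, so these ranges overlapped. Qk was 10.69 to 11.43 on the 3 QKItr arrays and 10.53 to 10.99 with eGFP, and these overlapped as well. Of 8 neural stem cell markers, 7 lay above the background level defined below in every group, and their mean log2 signal was 8.51 ± 0.10 (SD, n = 3 pools) with eGFP and, of the 5 construct groups, lowest with MYBQKI6, at 8.45 ± 0.18. It was 8.03 ± 0.19 with Qk suppressed and 8.07 ± 0.22 with LacZ suppressed. In the mean of the 3 MYB constructs against eGFP, 1 of the 8 passed the limma test described below as lower (Nes, by -1.04, adjusted p = 0.017) and 1 as higher (Vim, by 0.46, adjusted p = 0.048). The mean of 8 oligodendrocyte precursor markers was 7.84 ± 0.11 with eGFP (range 7.72 to 7.94), 7.92 with QKItr, and 6.97, 7.15 and 7.02 with MYBtr, MYBQKI5 and MYBQKI6 (range 6.69 to 7.34). The mean of 8 astrocyte markers was 6.43 ± 0.11 with eGFP (range 6.32 to 6.53), 6.51 with QKItr, and 5.90, 5.99 and 6.05 with the MYB constructs (range 5.63 to 6.22). The part of these shifts in the results that follow was not tested. In bulk RNA, fewer cells of a type and less RNA per cell cannot be told apart.

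Less than 50% of the potassium channel genes gave signal above background in control cells. A gene was counted as expressed where its signal exceeded the 95th percentile of 1098 olfactory receptor genes, which neural stem cells are not thought to use, on every array of a group. By this measure 42 of 91 genes (46.2%) were expressed with eGFP, against 12979 of all 23152 genes (56.1%). Against the median of all genes, 23 of 91 passed, and 13 had at least 50% of their probe sets above the probe-set median. Signal also depends on each gene's probes, so these measures sort genes and do not rank amounts of RNA. The genes that passed all 3 measures numbered 12. They were Kcna2, Kcnc1, Kcnd2, Kcnd3, Kcnh2 and Kcnq5 among the voltage-gated pores, the calcium-activated Kcnma1 and Kcnn2, the inward rectifiers Kcnj10 and Kcnj16, and the auxiliary subunits Kcnab2 and Kcnip3.

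**Figure D1:**
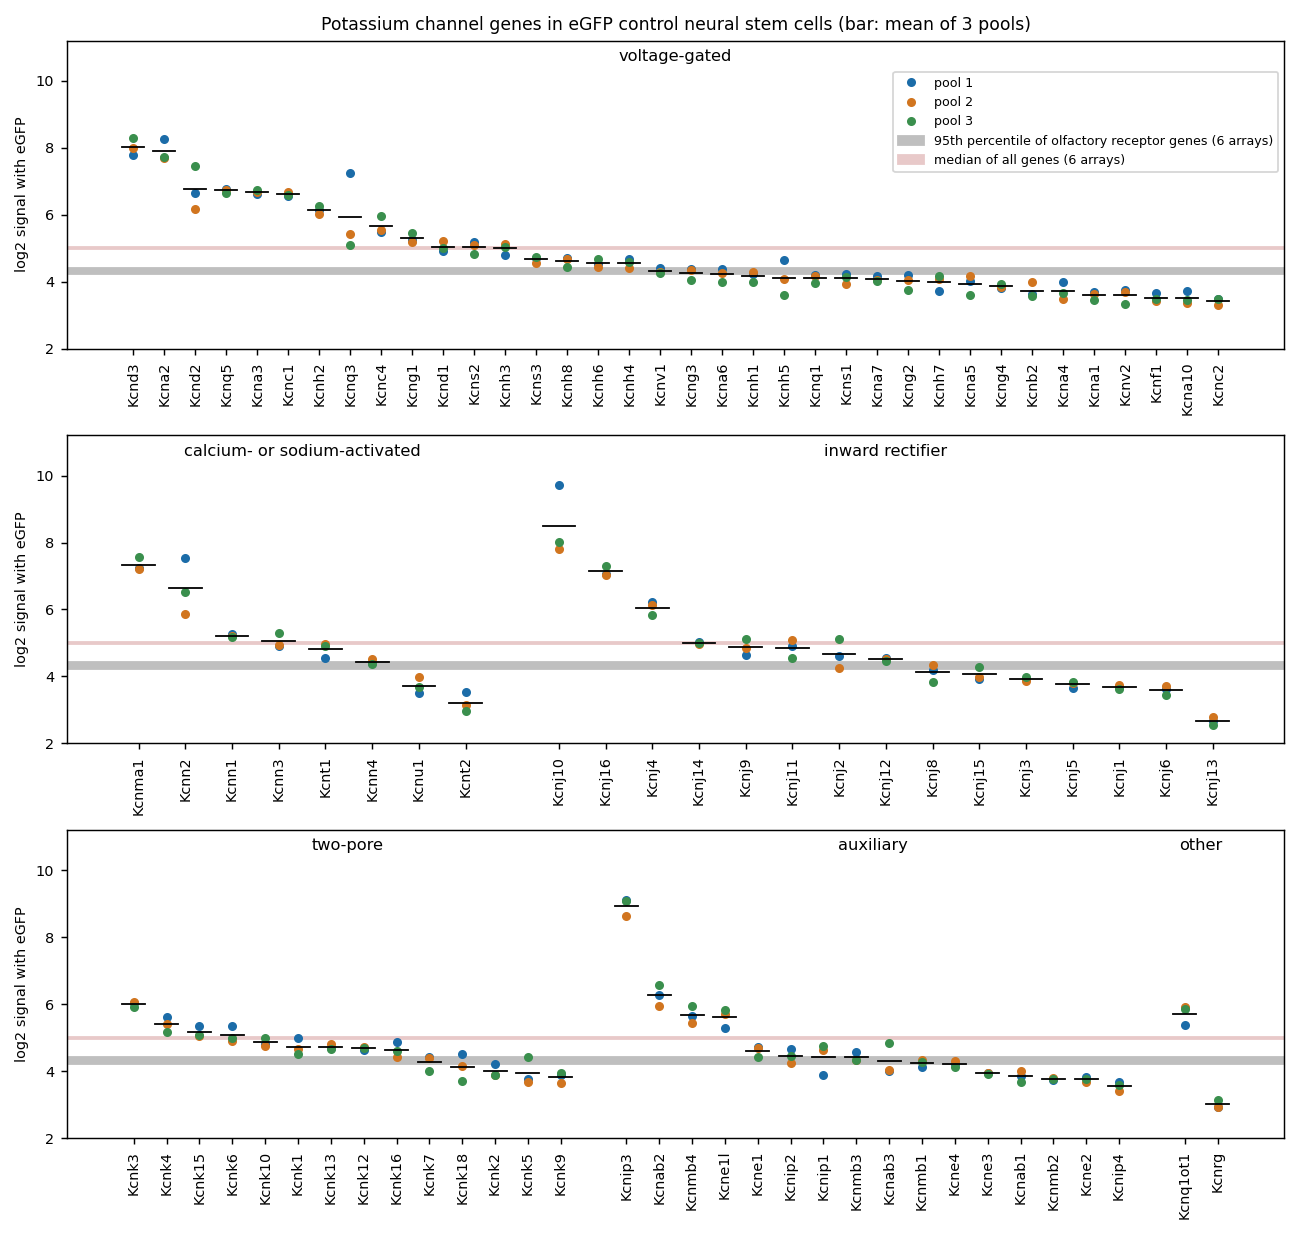
Log2 signal of the 91 genes with eGFP, by family; each point is the mean of a pool's 2 repeat arrays, each bar the mean of 3 pools, and the bands are the background and median levels over the 6 eGFP arrays. Kcnip3, Kcnj10 and Kcnd3 have the highest means (8.95, 8.51 and 8.02), and pool 1 stands above the other pools for Kcnq3, Kcnj10 and Kcnn2.

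Among the voltage-gated genes, 16 of 36 were expressed with eGFP. Kcnd3, which encodes a pore of the rapidly inactivating A-type current, gave 8.02 ± 0.25 (SD, n = 3 pools). Kcna2, a delayed rectifier of the Shaker family, gave 7.89 ± 0.32. Kcnd2, a second A-type pore, gave 6.75 ± 0.64, with 6.65, 6.17 and 7.44 in pools 1, 2 and 3. Of the calcium- or sodium-activated genes, 5 of 8 were expressed. Kcnma1, the pore of the large-conductance channel, gave 7.33 ± 0.20, and the small-conductance pores Kcnn2 and Kcnn1 gave 6.65 ± 0.84 and 5.22 ± 0.039.

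The inward rectifiers had 6 of 15 genes expressed with eGFP. Kcnj10, the main potassium-uptake channel of astrocytes, gave 8.51 ± 1.05, its usual partner Kcnj16 gave 7.13 ± 0.15, and Kcnj4, a strong rectifier of neurons, gave 6.06 ± 0.19. Two-pore genes had the most members just above background: 9 of 14 were expressed, 2 of 14 exceeded the median of all genes, and 0 of 14 had at least 50% of their probe sets above the median. The highest were the acid-sensitive leak channel Kcnk3 (6.01 ± 0.075), the mechanically gated Kcnk4 (5.40 ± 0.23) and Kcnk15 (5.16 ± 0.16). The auxiliary genes had 5 of 16 expressed. Kcnip3, a calcium-binding subunit of A-type channels, gave 8.95 ± 0.26, the cytoplasmic beta subunit Kcnab2 gave 6.27 ± 0.31, and Kcnmb4, the brain beta subunit of the large-conductance channel, gave 5.67 ± 0.25. In the last group Kcnq1ot1 gave 5.72 ± 0.30 and was expressed, and Kcnrg gave 3.00 ± 0.13 and was not.

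Control pools differed for a few of these genes by more than repeat arrays did. The range over the 3 eGFP pool means exceeded 1 log2 unit for 5 of 91 genes, while the median range was 0.32 and the median of the largest gap between repeat arrays of a pool was also 0.32. Kcnq3, a subunit of the neuronal M-current, was singled out after its values were seen and had the widest range, at 7.26, 5.42 and 5.09 in pools 1, 2 and 3. Kcnj10 gave 9.72, 7.79 and 8.02 and Kcnn2 gave 7.54, 5.87 and 6.53. For these 3 genes the highest pool was pool 1, and their largest gaps between repeat arrays were 0.09, 0.14 and 0.34.

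The set of expressed genes was much the same with each construct. By the background measure MYBtr had 43 of 91 genes expressed, MYBQKI5 had 41, MYBQKI6 had 47 and QKItr had 44, and 37 genes were expressed in all 5 construct groups and 42 in none. Kcnh8 was expressed with eGFP and with no MYB construct. Kcnh7, Kcnj2 and Kcnj9 were counted as expressed with every MYB construct and not with eGFP, where a gene had to pass on 6 arrays in place of 3. Kcnj9 missed on 1 eGFP array, at 4.20 against 4.77 to 5.21 on the others, and its mean change with the MYB constructs was -0.15.

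In the mean of the 3 MYB constructs, Kcnma1, Kcnc1 and Kcnh8 fell and Kcnh7 rose, and no other potassium channel gene was called without the pool block. Each construct was compared with eGFP by limma over all genes, and a gene was called where the Benjamini-Hochberg adjusted p was under 0.05. With MYBtr, 2 of 91 genes were called (Kcnma1 lower, Kcnh7 higher), where 1.37% of all genes were. With MYBQKI5, 0 of 91 were called, where 0.199% of all genes were, and 11 of 91 had an unadjusted p under 0.05, as did 6.8% of all genes. With MYBQKI6, 2 of 91 were called, again Kcnma1 and Kcnh7, where 0.765% of all genes were. The mean of the 3 MYB constructs against eGFP, which has a smaller error, called 4 of 91 genes, where 2% of all genes were called. The comparisons share the eGFP samples.

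Samples of the same pool deviated together, and with the pool as a block more genes were called. The block called 7 of 91 genes with MYBtr (5.97% of all genes), 6 with MYBQKI5 (2.63% of all genes) and 8 with MYBQKI6 (4.39% of all genes). For the mean of the MYB constructs it called 10 of 91, 7 lower and 3 higher, against 7.07% of all genes. These 10 were Kcnma1, Kcnj10, Kcnc1, Kcnd3, Kcnip3, Kcnh8, Kcnmb4, Kcnh7, Kcne1l and Kcnj2, and Kcng2 was called with the block for MYBQKI6 only. The median change of the 91 genes was -0.018, beside -0.0066 for all genes, and 70 of 91 differed by less than 0.25.

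**Figure D2:**
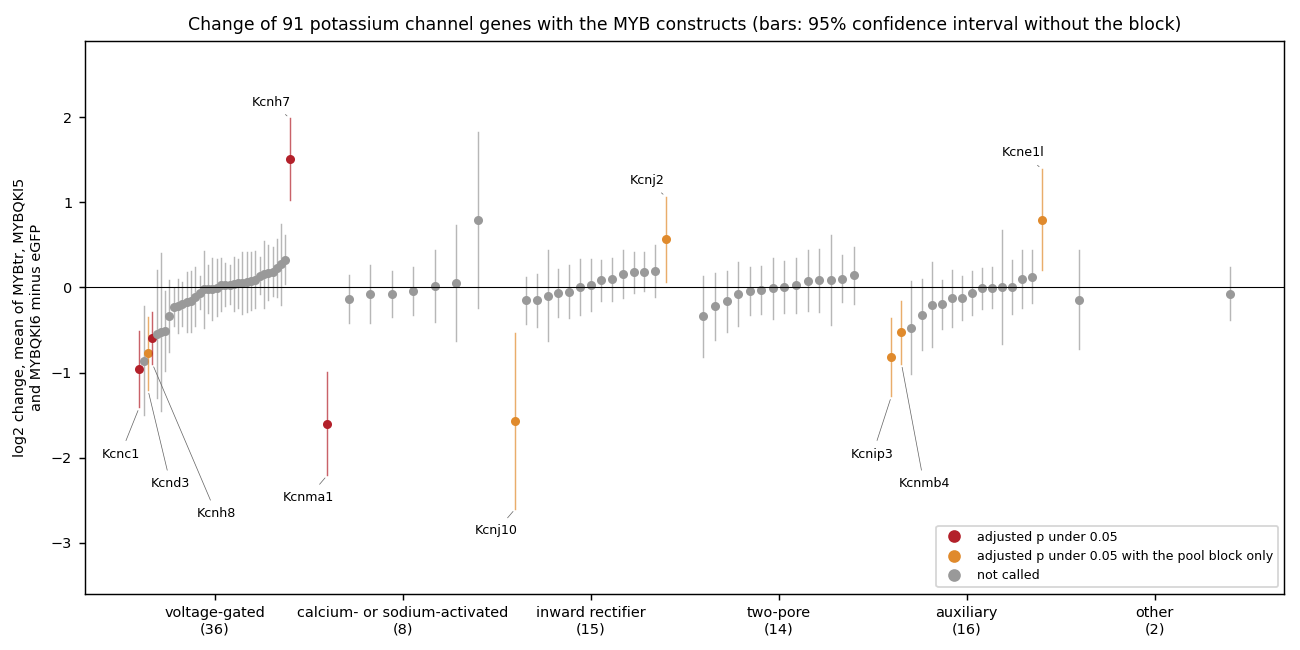
Log2 change of each of the 91 genes, mean of MYBtr, MYBQKI5 and MYBQKI6 minus eGFP, by family (number of genes in brackets), with 95% confidence intervals from the fit without the pool block; colour marks which fit called the gene. Kcnh7 is the one gene above 1, Kcnma1 and Kcnj10 are the 2 genes below -1, and no two-pore gene is called.

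By family, the mean of the MYB constructs called 3 of 36 voltage-gated genes without the block and 4 with it, and 1 of 8 calcium- or sodium-activated genes with either. It called 0 of 15 inward rectifiers without the block and 2 with it, and 0 of 16 auxiliary genes without and 3 with it. It called 0 of 14 two-pore genes with either, and 0 of these had an unadjusted p under 0.05, where 9.8% of all genes did. Beside these family counts, 2% of all genes were called without the block and 7.07% with it. The two-pore changes ran from -0.34 to 0.14.

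The promoter windows of the 4 genes called without the block are given here because the over-expressed constructs carry MYB, a transcription factor that binds the core AACNG. The windows are from RefSeq (GRCm38.p6), run 5′ to 3′ on the gene's strand from 250 bases before to 50 after the start, and matches to AACNG on either strand are in capitals. Kcnma1 lies at chr14:24004156-24004455 on the minus strand, Kcnh7 at chr2:63184238-63184537 on the minus strand, Kcnc1 at chr7:46396218-46396517 on the plus strand and Kcnh8 at chr17:52602459-52602758 on the plus strand.
Kcnma1: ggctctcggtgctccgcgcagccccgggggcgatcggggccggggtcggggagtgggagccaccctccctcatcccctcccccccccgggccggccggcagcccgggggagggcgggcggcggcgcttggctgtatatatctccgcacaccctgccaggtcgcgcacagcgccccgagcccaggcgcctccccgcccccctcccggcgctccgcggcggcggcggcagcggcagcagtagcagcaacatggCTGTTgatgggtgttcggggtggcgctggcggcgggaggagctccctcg
Kcnh7: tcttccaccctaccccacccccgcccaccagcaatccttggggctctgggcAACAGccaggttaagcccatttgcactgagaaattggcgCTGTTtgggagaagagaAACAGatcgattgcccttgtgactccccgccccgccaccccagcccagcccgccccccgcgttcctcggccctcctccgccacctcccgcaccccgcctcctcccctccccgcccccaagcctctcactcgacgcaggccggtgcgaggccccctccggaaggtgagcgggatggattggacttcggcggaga
Kcnc1: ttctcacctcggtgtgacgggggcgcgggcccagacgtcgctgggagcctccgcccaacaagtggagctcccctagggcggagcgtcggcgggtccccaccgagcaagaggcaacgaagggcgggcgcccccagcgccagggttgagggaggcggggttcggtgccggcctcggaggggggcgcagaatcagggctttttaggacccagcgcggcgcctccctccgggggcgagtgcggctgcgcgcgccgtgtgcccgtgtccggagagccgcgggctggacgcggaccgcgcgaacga
Kcnh8: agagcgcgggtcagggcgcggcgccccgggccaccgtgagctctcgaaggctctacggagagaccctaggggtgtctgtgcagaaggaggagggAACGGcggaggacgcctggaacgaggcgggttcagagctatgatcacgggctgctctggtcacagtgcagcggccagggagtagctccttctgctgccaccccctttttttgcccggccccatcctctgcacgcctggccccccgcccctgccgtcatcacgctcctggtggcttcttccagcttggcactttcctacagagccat
The core occurred 1 time in the Kcnma1 window, 3 times in that of Kcnh7, 0 times in that of Kcnc1 and 1 time in that of Kcnh8. Of all 32851 windows in the table, 80.3% held at least 1 match, and of 95 windows of potassium channel genes 76.8% did. A match describes these letters and is no site, and the windows that hold one belong to genes that fell and to the gene that rose.

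Kcnma1, the pore of the large-conductance calcium-activated channel, was lower with every MYB construct in every pool. With eGFP its signal was 7.23, 7.20 and 7.55 in pools 1, 2 and 3. It was 5.35, 5.55 and 6.35 with MYBtr, 5.03, 6.00 and 6.22 with MYBQKI5, and 5.12, 5.56 and 6.39 with MYBQKI6. All 9 MYB values lay below all eGFP values, and pool 3 was the highest with each MYB construct. The mean fall against eGFP was -1.60 on the log2 scale (SE 0.28, 3.03-fold, limma adjusted p = 0.0087, with the block 0.00040). The change was -1.58 with MYBtr (adjusted p = 0.039, with the block 0.0024), -1.58 with MYBQKI5 (adjusted p = 0.093, with the block 0.0055) and -1.64 with MYBQKI6 (adjusted p = 0.045, with the block 0.0025).

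All 32 probe sets of Kcnma1 were lower with the MYB constructs, by -0.48 to -2.60. In 23 of the 32, all 9 MYB values lay below all eGFP pool values. Over all 804 probe sets of the family 34 did so, where 1.29% of all probe sets did, and 9 lay wholly above, where 1.44% of all did. Tested one by one over all probe sets, 3 of the 32 were called and 14 with the block. The same tests called 10 of 804 and 26 of 804 probe sets, where 0.356% and 1.1% of all probe sets were called. With the highest-mean probe set as the gene's value, Kcnma1 was not called in any MYB comparison (mean of the MYB constructs -1.74, limma adjusted p = 0.053). Leaving out eGFP pool 1, 2 or 3 also ended its call in the mean of the MYB constructs, at changes of -1.65, -1.67 and -1.49 and limma adjusted p = 0.051, 0.053 and 0.064.

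Kcnmb4, its brain beta subunit, was lower in each pool too, though its call needed the block. It gave 5.65, 5.44 and 5.93 with eGFP in pools 1, 2 and 3, and 4.73 to 5.64 over the 9 MYB samples, which overlap the control range. The mean change was -0.53 (SE 0.17, adjusted p = 0.18, with the block 0.041), and 9 of 9 within-pool differences were below 0. Here and below, the 9 differences of a gene share the eGFP values of 3 pools and are not independent. The share of all genes with such counts was not computed. The other calcium- or sodium-activated genes were not called. Next to Kcnma1 in signal, Kcnn2 differed from eGFP by 0.054 in the mean and Kcnn1 by -0.072. The small mean of Kcnn2, a small-conductance channel, covers pools that differed in sign: eGFP gave 7.54, 5.87 and 6.53 in pools 1, 2 and 3, and the MYB samples were lower in pool 1 (6.35 to 7.13) and higher in pools 2 (6.36 to 6.95) and 3 (6.62 to 6.82). Kcnn3, of the same kind, gave 4.92, 4.94 and 5.31 with eGFP, and with the MYB constructs 4.47 to 4.83 in pool 1, 6.36 to 6.44 in pool 2 and 6.35 to 6.77 in pool 3. Its mean change was 0.79 (SE 0.48, adjusted p = 0.75, with the block 0.12), lower than eGFP in pool 1 and higher in pools 2 and 3.

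Kcnh7, a slowly gating channel of the ether-a-go-go-related group, moved the other way. With eGFP it gave 3.72, 4.09 and 4.18 in pools 1, 2 and 3, and was not counted as expressed. It gave 5.82, 5.71 and 4.92 with MYBtr, 5.37, 5.49 and 5.26 with MYBQKI5, and 6.10, 5.91 and 4.96 with MYBQKI6. Every MYB value lay above every eGFP value, and pool 3 was the lowest with each MYB construct. The mean rise was 1.51 (SE 0.22, 2.84-fold, adjusted p = 0.0037, with the block 0.00027). It was 1.49 with MYBtr (adjusted p = 0.018), 1.38 with MYBQKI5 (adjusted p = 0.064, with the block 0.0058) and 1.66 with MYBQKI6 (adjusted p = 0.014).

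The Kcnh7 probe sets fell into a pair of groups along the array's identifiers. All 18 were higher with the MYB constructs. Of these, 11 were higher by 1.58 to 3.42, of which 5 were called, and the other 7 differed by 0.020 to 0.65, of which 0 were called. In the order of identifiers the 11 were all among the first 12, and the last 6 were all in the group with small differences. Identifiers are no genome positions, and no map of probe sets to exons was used here. With the highest-mean probe set as the gene's value, which is one of the 11, the mean change was 1.90 and was not called (limma adjusted p = 0.083).

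**Figure D3:**
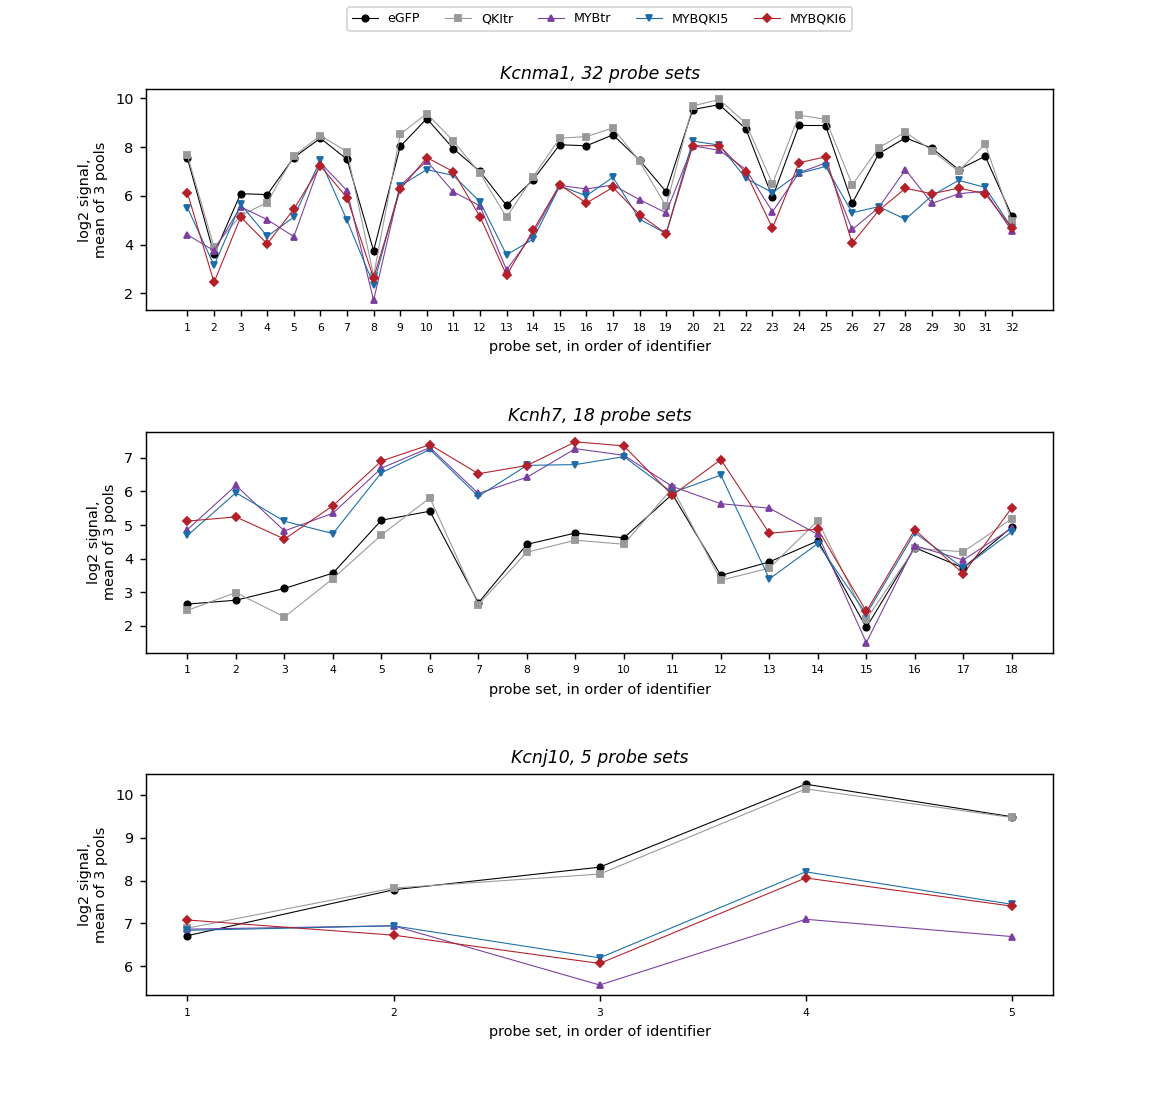
Mean log2 signal over 3 pools of each probe set of Kcnma1 (32), Kcnh7 (18) and Kcnj10 (5) with each construct, in order of the array's identifiers. All Kcnma1 probe sets lie lower with the MYB constructs, the 11 Kcnh7 probe sets with mean differences over 1 are among the first 12, and the first Kcnj10 probe set shows a difference of 0.21 in the other direction.

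Kcnh8, a channel of the related ether-a-go-go-like group, was lower. It gave 4.70, 4.69 and 4.42 with eGFP and 3.65 to 4.49 over the 9 MYB samples, with the highest value, MYBtr in pool 3, inside the control range. The mean change was -0.59 (SE 0.14, adjusted p = 0.049, with the block 0.018), and 8 of 9 within-pool differences were below 0. All of these levels are near background. Leaving out 1 of the 12 samples kept the call in 4 fits and lost it in 8, among them each eGFP pool, with adjusted p from 0.017 to 0.26 over the 12. It was also not called with eGFP repeat R2 only (adjusted p = 0.075), with the median of probe sets (-0.62, adjusted p = 0.22) or with the probe set of highest mean (-1.15, adjusted p = 0.45).

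Kcnc1, a pore that repolarises fast-spiking neurons, gave 6.56, 6.69 and 6.60 with eGFP in pools 1, 2 and 3. It gave 5.36, 5.52 and 6.28 with MYBtr, 5.33, 5.88 and 5.88 with MYBQKI5, and 5.03, 5.59 and 6.02 with MYBQKI6. All 9 MYB values were lower than all control values. The mean fall was -0.96 (SE 0.21, 1.95-fold, adjusted p = 0.028, with the block 0.0019), and all 9 probe sets of the gene were lower, of which 2 were called and 2 with the block. Without eGFP pool 1, 2 or 3 it was not called (limma adjusted p = 0.11, 0.16 and 0.11), nor without pool 2 of MYBtr (0.055) or of MYBQKI6. With all samples, its calls with single constructs needed the block (adjusted p = 0.013, 0.023 and 0.0064 with MYBtr, MYBQKI5 and MYBQKI6, against 0.13, 0.22 and 0.080 without). Leaving out pool 3 of MYBtr or of MYBQKI6 called it for that construct without the block.

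The A-type pore Kcnd3 and its subunit Kcnip3 were both lower, and in the fit described above both calls needed the block. Without the block, quantile normalization called Kcnd3 in the mean of the MYB constructs, and leaving out MYBtr in pool 3 called both. Kcnd3 gave 7.78, 8.00 and 8.29 with eGFP and 6.79 to 7.66 over the 9 MYB samples, with no overlap. Its mean change was -0.78 (SE 0.20, adjusted p = 0.064, with the block 0.00073), and 12 of 12 probe sets were lower, of which 0 were called and 2 with the block. Kcnip3 gave 9.11, 8.65 and 9.08 with eGFP and 7.64 to 8.71 with the MYB constructs, with MYBtr in pool 3 above the lowest control. Its mean change was -0.82 (SE 0.22, adjusted p = 0.074, with the block 0.0046), and 11 of 11 probe sets were lower. Of these probe sets 0 were called with or without the block, and 0 had all MYB values below all eGFP pool values. Kcnd2, the other A-type pore, gave 5.54 to 7.11 with the MYB constructs, a mean change of -0.54 (adjusted p = 0.79, with the block 0.076).

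Kcna2 had a difference between those of Kcnc1 and Kcnd3 and was not called by either fit. It gave 8.26, 7.70 and 7.72 with eGFP in pools 1, 2 and 3. With MYBtr it gave 6.41, 6.89 and 7.68, with MYBQKI5 6.47, 7.02 and 7.49, and with MYBQKI6 6.61, 6.98 and 7.75. Pools 1 and 2 were lower with every MYB construct, while in pool 3 the MYB values lay on both sides of the control. The mean change was -0.86 (SE 0.30, adjusted p = 0.23, with the block 0.076). Its genomic neighbours Kcna3 and Kcna10 differed by 0.17 and 0.14.

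Kcnj10 had the largest single-construct change of the family, with a wide spread between pools. With eGFP the 2 arrays gave 9.79 and 9.65 in pool 1, 7.84 and 7.74 in pool 2, and 8.01 and 8.02 in pool 3. MYBtr gave 6.59, 6.07 and 7.24 in pools 1, 2 and 3, MYBQKI5 gave 8.11, 6.40 and 6.86, and MYBQKI6 gave 7.40, 6.45 and 7.35. The control level of pool 1 stands far above the others, so the groups overlap only through MYBQKI5 in pool 1, while 9 of 9 within-pool differences were below 0 (from -3.12 to -0.67).

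Its mean change was -1.57 (SE 0.48, 2.96-fold, adjusted p = 0.14, with the block 0.0029). Of its 5 probe sets, 3 were lower by -2.31 to -2.46 and were called with the block, while 1 differed by -0.91 and 1 by 0.21. Without eGFP pool 1 the change was -0.96 in the fit without the block. The next gene on the chromosome, Kcnj9, differed by -0.15, and Kcnj16, which forms channels with Kcnj10, also by -0.15 (adjusted p = 0.99). The astrocyte and oligodendrocyte precursor markers given above, from cell types known to carry Kcnj10, were lower in 5 of 8 and 7 of 8 cases with the same constructs, with median changes of -0.38 and -1.07. Of them 2 and 3 were called lower in the same comparison (4 and 6 with the block). Of all genes, 0.825% were called lower, and 3.47% with the block. Whether called or not, 11167 of all 23152 genes were higher in this comparison. Pdgfra, a receptor of oligodendrocyte precursors, was higher by 0.67 (adjusted p = 0.30, with the block 0.031). Their part in the Kcnj10 and Kcnma1 values was not tested.

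Smaller differences of Kcne1l, Kcnj2 and Kcng2 were upward, and with all samples each call needed the block. Leaving out MYBtr in pool 1 called Kcne1l in the mean of the MYB constructs without the block. Kcne1l, a single-span auxiliary subunit, gave 5.28, 5.71 and 5.82 with eGFP and 5.57 to 7.18 with the MYB constructs, a mean change of 0.80 (SE 0.28, adjusted p = 0.23, with the block 0.015). Kcnj2, a strong inward rectifier, gave 4.60, 4.25 and 5.13 with eGFP and 4.60 to 5.78 with the MYB constructs, a mean change of 0.57 (SE 0.23, adjusted p = 0.38, with the block 0.028). Its neighbour Kcnj16 did not share this direction. Kcng2, a silent subunit that modifies other voltage-gated pores, gave 4.21, 4.05 and 3.76 with eGFP and 4.78, 4.46 and 4.42 with MYBQKI6, a change of 0.55 (SE 0.16, adjusted p = 0.20, with the block 0.027).

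**Figure D4:**
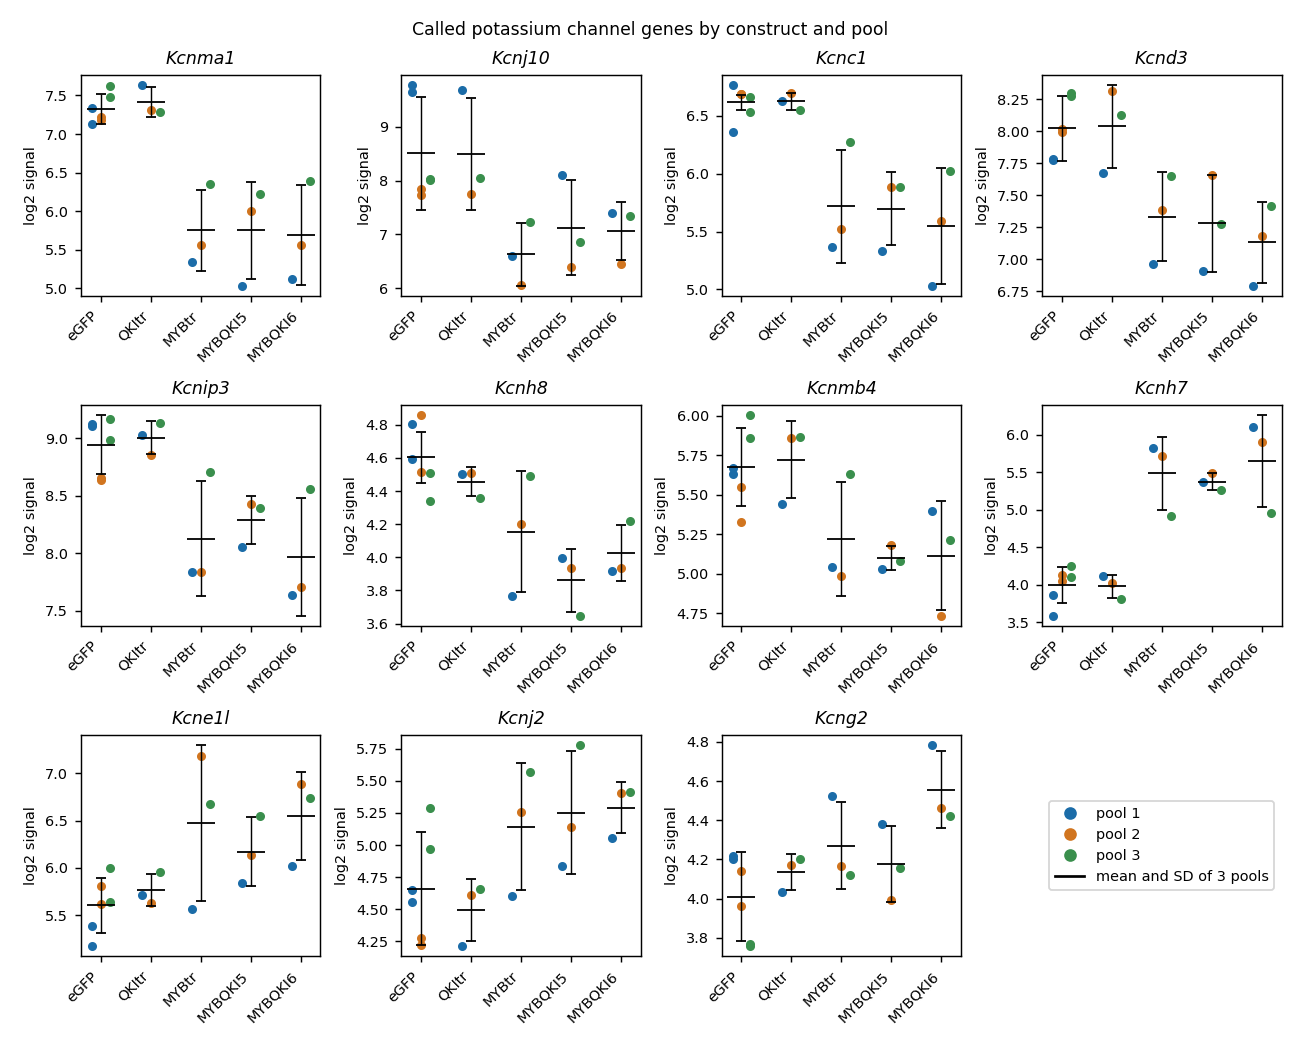
Log2 signal of the 11 genes called by either fit, by construct and pool (colour), with both repeat arrays shown for eGFP; bars are the mean and SD of 3 pools. QKItr means differ from eGFP means by -0.17 to 0.16, and for Kcnma1, Kcnc1, Kcnd3 and Kcnh7 no MYB value overlaps an eGFP pool value.

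Over the 91 genes, 3 had all 9 MYB values below all eGFP pool values (Kcnma1, Kcnc1 and Kcnd3), where 2.35% of all genes did, and 2 had all above (Kcnh7 and the inward rectifier Kcnj12, by 0.18), where 2.03% did. In pool 3 the mean difference of the MYB constructs from eGFP was the smallest in size for 6 of the 11 named genes, including Kcnma1 (-1.23, beside -2.07 and -1.50 in pools 1 and 2) and Kcnh7 (0.87, beside 2.04 and 1.61). Leaving out pool 3 of MYBtr or of MYBQKI6 raised the count called for that construct from 2 to 4. Leaving out eGFP pool 1 or 2, or pool 1 or 2 of the construct, took it to 0, and leaving out eGFP pool 3 took it to 1, Kcnh7. For the mean of the MYB constructs, leaving out any of the eGFP pools left 1 called gene, Kcnh7, and leaving out MYBtr or MYBQKI6 in pool 2 left 2, Kcnma1 and Kcnh7. The share of all genes called was not computed for fits with a sample left out, so these counts describe no trait of the family.

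The MYB constructs were also compared with each other, to ask whether the QKI part or its isoform altered these genes. No potassium channel gene was called for MYBQKI5 against MYBtr, MYBQKI6 against MYBtr or MYBQKI6 against MYBQKI5, with or without the block, where 0% of all genes were called by limma. At an unadjusted p under 0.05 there were 1, 1 and 3 of 91, and 3.67%, 2.61% and 1.74% of all genes. All differences lay between -0.47 and 0.52. For Kcnma1 the differences were -0.00043, -0.061 and -0.061, with 95% intervals within -0.80 to 0.74, and for Kcnh7 they were -0.11, 0.17 and 0.28, with intervals within -0.70 to 0.87. Differences inside these intervals could not be told apart from 0 with 3 pools.

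QKItr, which carries no MYB, called 0 of 91 genes against eGFP with or without the block, where 0% of all genes were called. Without the block 3 of 91 had an unadjusted p under 0.05, as did 1.56% of all genes. With the block 6 of 91 did, and 1064 of all 23152 genes. Changes ran from -0.32 to 0.69, and the highest was that of Kcnd2, at 7.54, 7.02 and 7.76 in pools 1, 2 and 3 against 6.65, 6.17 and 7.44 with eGFP. It was higher in 3 of 3 pools, and the adjusted p was 1.00 without the block and 0.99 with it. Kcnma1 gave 7.64, 7.31 and 7.29, a difference of 0.083 from eGFP (95% interval -0.66 to 0.83). Kcnh7 gave 4.11, 4.02 and 3.81, a difference of -0.016 (95% interval -0.61 to 0.57), and Kcnj10 kept the high level of pool 1, at 9.68, 7.76 and 8.04.

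Suppression of Qk in cells with MYBQKI6 was compared with suppression of LacZ within the second set, to ask what suppression of Qk adds. Mean Qk signal was 9.48 with Qk suppressed and 9.70 with LacZ suppressed, with overlapping ranges, so these arrays do not show a large loss of Qk. No potassium channel gene was called with or without the block, where 0.00432% of all genes were called by either fit, and 4 of 91 had an unadjusted p under 0.05 (8 with the block). Of all genes, 4.09% had an unadjusted p under 0.05, beside 4.40% of the family. With the block 1734 of all 23152 genes did. The median difference of the 91 genes was 0.084, beside 0.027 for all genes. Differences ran from -0.59 (Kcnq1ot1) to 0.67 (Kcna2).

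Kcnma1 gave 4.25, 3.08, 3.54, 3.40 and 4.08 with Qk suppressed and 3.42, 4.33 and 3.83 with LacZ suppressed. The ranges overlap throughout, and the difference was -0.19 (95% interval -0.81 to 0.43). The background level was 4.29 to 4.56 on these arrays, and Kcnma1 exceeded it only on LacZ array 2 (4.33 against 4.31). A further fall of Kcnma1 could therefore not be read here. Kcnh7 gave 4.42, 5.27, 4.99, 5.24 and 5.41 against 5.41, 4.32 and 4.92, a difference of 0.18 (95% interval -0.41 to 0.78). Kcnj10 gave 5.46 to 6.19 against 5.55 to 5.87, a difference of 0.057 (95% interval -0.34 to 0.45). Kcna2, with the largest difference, gave 5.71, 6.81, 6.09, 7.35 and 6.42 against 7.12, 5.52 and 4.78, and its spread within the LacZ group exceeded the difference between groups. By the background measure 41 of 91 genes were expressed with Qk suppressed and 37 with LacZ suppressed.

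**Figure D5:**
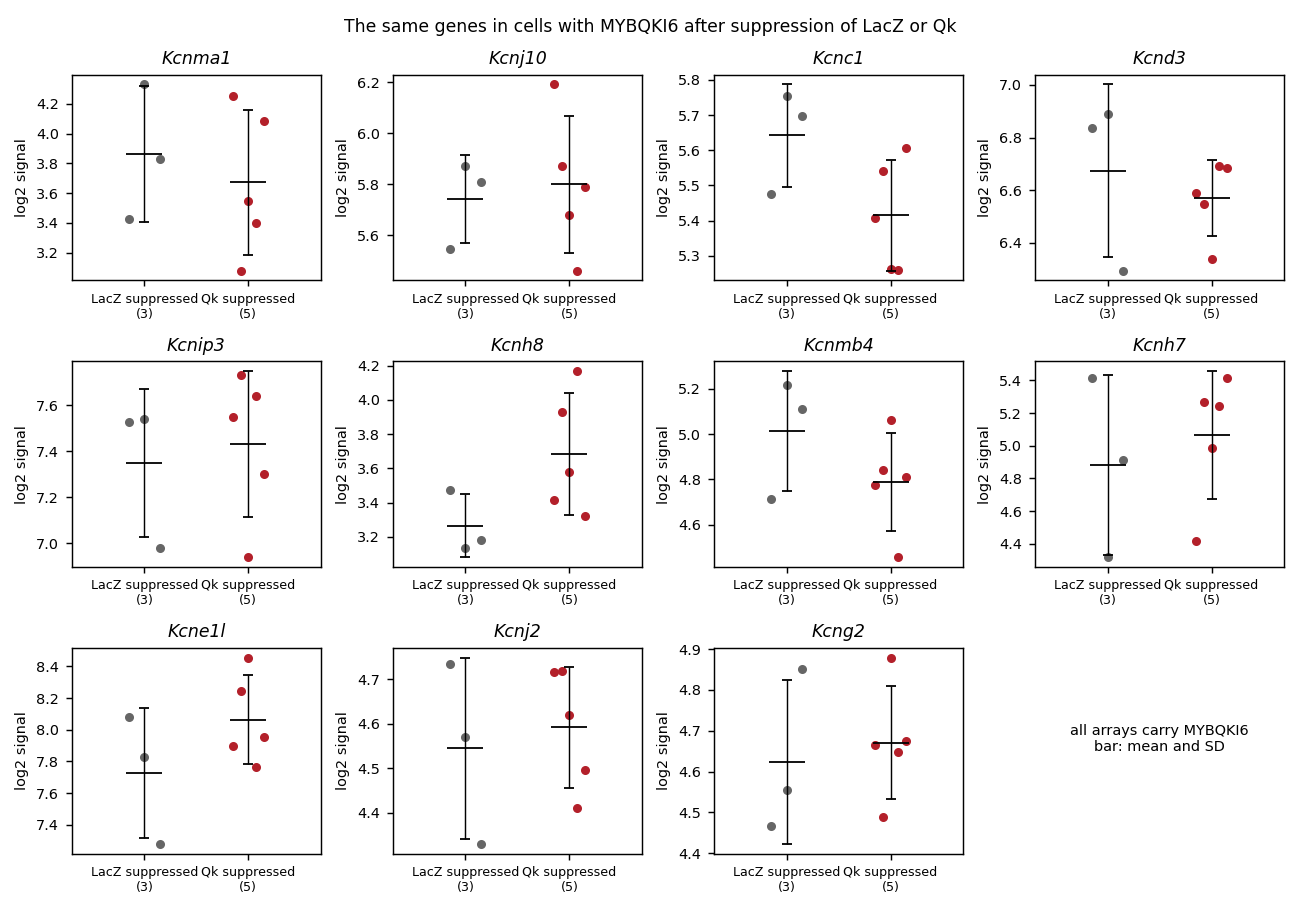
Log2 signal of the same 11 genes on the arrays with LacZ suppressed (3) and Qk suppressed (5), all in cells with MYBQKI6; bars are the mean and SD. The ranges of the groups overlap for every gene shown. Kcnma1 lies between 3.08 and 4.33 on all 8 arrays, near or below the background level of 4.29 to 4.56.

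Genes that work with potassium channels without sharing their name were not called without the block. Of 31 listed genes for channel partners, hyperpolarisation-activated channels, the sodium-potassium pump and cation-chloride cotransporters, 26 were on the array. In the mean of the MYB constructs against eGFP, 0 of 26 were called, where 2% of all genes were, and 3 had an unadjusted p under 0.05, as did 9.8% of all genes. With the block 2 were called, where 7.07% of all genes were, both higher: the pump subunit Atp1b3 by 0.63 (adjusted p = 0.15, with the block 0.0077) and Slc12a5, the chloride extruder of neurons, by 0.52 (adjusted p = 0.77, with the block 0.025). The median change of the 26 was 0.059.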

How the data were processed

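Per the labels, 26 total RNA samples carried a biotin label and were hybridised by the Affymetrix protocol. The deposited values are log2 signals, as read from their range of 0.22 to 14.6. The authors' normalization and summary method are not given in the sources used here. Array medians were 5.61 to 5.74 in the pool set and 5.39 to 5.51 in the suppression set, so no comparison crossed the sets. Of the probe sets, 233753 named 1 symbol, 5106 several and 30892 none. A potassium channel gene had a median of 6 probe sets (1 to 32), and all 91 symbols were found in RefSeq. The number of arrays limits the precision.

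Repeat eGFP arrays were averaged within each pool. The 5 construct groups were fitted together, and the suppression set apart, with limma 3.58.1 in R 4.3.3 (lmFit, eBayes) over all 23152 genes with no filter, and p-values were adjusted over all genes by Benjamini-Hochberg. The fit without the block was run on simulated data drawn with independent samples and no pool effect. That run therefore does not cover samples that deviate together by pool. Tables were made with pandas 2.3.3 in Python 3.11.15. The members, families, markers and partner list were chosen with earlier results of these data known. Named genes were Kcnma1, every member called with or without the replicate block, the 3 members of highest eGFP signal in each family, and partners called without the block; Atp1b3, Slc12a5, Kcnq3, Kcnj12, Kcnj9, Kcnn3, Kcna3 and Kcna10 were named after their values were seen, and genes listed as expressed follow from that count.

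Residuals of samples with the same pool number correlated over genes in each of 30 pairs (0.31 to 0.72, beside a median of -0.23 for 60 other pairs). In the suppression set, the second number of the titles did the same in 5 pairs (0.22 to 0.57). The numbers were therefore used as a pairing from the data, in an alternative fit with the replicate block.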

Additional observations from a re-analysis of the deposited data

How the results depend on the processing

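Counts of called potassium channel genes depended on the block, on how probe sets were combined and on single samples. With the replicate block for the pairing, 7, 6, 8 and 10 genes were called for MYBtr, MYBQKI5, MYBQKI6 and the mean of the MYB constructs against eGFP, in place of 2, 0, 2 and 4. The block changed no call for QKItr, the pairs of MYB constructs or Qk suppression. With the probe set of highest mean these counts were 0, 0, 0 and 1, and with the median of probe sets 0, 0, 1 and 2. With quantile normalization within the set they were 2, 0, 2 and 5, the added gene being Kcnd3. With only genes above the median on 3 arrays MYBQKI5 gave 1, at adjusted p under 0.1 it gave 2, and with eGFP repeat R2 only MYBQKI6 gave 1. Leaving out 1 sample gave 0 to 4 genes for MYBtr, 0 to 4 for MYBQKI6 and 1 to 6 for the mean. The share of all genes called was computed for the reported fit and the block only. Whether all genes moved likewise under the other alternatives was not tested. Of the counts under all alternatives, 96 stayed within 1.5 times the reported count and 32 did not. A count of 0 beside a reported 0 was taken as unchanged. The 96 therefore hold every count for QKItr, for one MYB construct against another and for suppression of Qk, where no fit called a gene. They also hold most counts for MYBQKI5 against eGFP, for the same reason. The 96 are thus no measure of how stable the calls with MYB constructs were. Expressed genes with eGFP numbered 23 by the median of all genes and 13 by the share of probe sets.

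Of gene changes under an alternative, 751 kept direction and call, 48 lost the call, 35 gained it and 29 changed sign, and the cause was not tested. With the probe set of highest mean, the MYBtr changes of Kcng2 and Kcnmb4 became -0.11 and 0.11, and for Kcnma1 that of Qk suppression became 0.084, of MYBQKI5 against MYBtr 0.21 and of MYBQKI6 against MYBtr 0.19. For Kcnh7 with QKItr it became 0.40, with the median of probe sets 0.054 and with eGFP repeat R2 only 0.069. The median of probe sets turned Kcnh7 for MYBQKI5 against MYBtr to 0.11 and Kcnma1 for MYBQKI6 against MYBQKI5 to 0.088. All other sign changes came from leaving out 1 sample in a comparison with no called gene. Then Kcnma1 ranged from -0.030 to 0.20 with QKItr, -0.41 to 0.044 with Qk suppression, -0.24 to 0.36 for MYBQKI5 against MYBtr, -0.41 to 0.24 for MYBQKI6 against MYBtr and -0.42 to 0.23 for MYBQKI6 against MYBQKI5. Kcnh7 ranged from -0.15 to 0.075 with QKItr, -0.099 to 0.45 with Qk suppression, -0.39 to 0.060 for MYBQKI5 against MYBtr and -0.11 to 0.52 for MYBQKI6 against MYBtr.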
